A study of Arabidopsis thaliana with 6 samples.

Results

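Cytochrome P450 enzymes are heme proteins that use molecular oxygen to oxidize small molecules, and in plants they act in the synthesis and breakdown of hormones, defense compounds, phenolics and cuticle lipids. They are named by family number, subfamily letter and gene number, and related families are joined into clans. Clan 71 is the largest plant clan and holds many enzymes of specialized metabolism. The genes described here are all nuclear genes of Arabidopsis thaliana whose symbol in the NCBI gene table has this form and that were paired with an array probe set of their own. The rule found 22 genes, out of 225 genes with such a symbol and out of 13286 genes of any kind with a probe set of their own. The set is therefore a narrow sample of the superfamily: 18 of the 22 genes belong to the CYP71B subfamily, and CYP51G2, CYP78A9, CYP79A2 and CYP84A4 stand for 1 gene each. Of these, 21 belong to clan 71 and CYP51G2 to clan 51. The P450 enzymes best known from drought and hormone metabolism, such as the CYP707A enzymes that break down abscisic acid, were not among the genes paired in this way and were not analysed here.

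RNA came from vegetative rosettes of Col-0 plants, and each RNA was hybridized to 1 Affymetrix ATH1 array. Water deficit plants were 4 weeks old when water was withheld, and were harvested at a relative water content of 65% (3 independent replicates). Watered plants, also 4 weeks old at that point, continued to receive water (3 independent replicates). No mutant or transgene was involved, and the sources used here do not say whether a replicate pooled several plants.

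The 6 arrays were unequally bright. The median deposited intensity lay between 18.9 and 51.6 on water deficit arrays and between 12.6 and 38.2 on watered arrays, and replicate 1 was the dimmest array of each group. Intensities were therefore brought to 1 distribution by quantile normalization, and every normalized value below is on that scale. Values were raised to a background floor of 18.5 normalized units, the highest signal of control probe sets for bacterial transcripts, before log2 was taken. A gene counts as measured when its probe set was above this floor on 3 or more of the 6 arrays. Leaf photosynthesis genes marked the tissue as labelled. Of 8 listed markers 5 were paired with a probe set of their own, and all 5 were measured. Their summed intensity was 10436 to 15773 on water deficit arrays and 25128 to 30107 on watered arrays. Of 7 listed root markers only 1 was paired in this way, EXPA7, and it was at the floor on all arrays. For flower and pollen 0 of 5 listed markers were paired, and for seed 0 of 5, so these tissues could not be checked. The annotation gave no gene for 8730 of 22746 non-control probe sets. Unpaired markers may therefore still have a probe set on the array. Fewer cells of a type and less RNA per cell cannot be told apart in such bulk samples. All 5 leaf markers fell and were called lower, as were 23% of all tested probe sets. They kept this direction with the deposited values left unscaled, where 0 of the 5 were called. In that unscaled fit 370 of 14915 tested probe sets were called lower. The part of the leaf marker shift in the P450 results was not tested.

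Of the 22 P450 genes, 11 were measured, and they moved in both directions under water deficit. CYP71B26, CYP71B6 and CYP71B28 rose, CYP71B29 and CYP71B23 fell, and 6 genes did not pass the test (limma, Benjamini-Hochberg adjusted p under 0.05 over all probe sets). That is 45.5% of the measured genes called, against 44.9% of all 13703 tested probe sets, so the share called is at the background. By direction, 27.3% of the measured genes rose and 18.2% fell, with backgrounds of 21.8% and 23%. The size of the changes was also at the background, with a median absolute log2 fold change of 0.59 for the 11 genes and 0.59 for all tested probe sets. The median signed log2 fold change was 0.45 for the 11 genes and 0.04 for all tested probe sets. With the deposited values left unscaled, the median of all tested probe sets moved to 0.51, and CYP71B26 was the only one of the 11 genes called. Calls were fewer over all probe sets too in that fit, with 1030 of 14915 called higher and 370 lower. No measured P450 gene was at the floor on all 3 arrays of a group, and 7 of the 11 were above it on all 6 arrays.

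**Figure D1:**
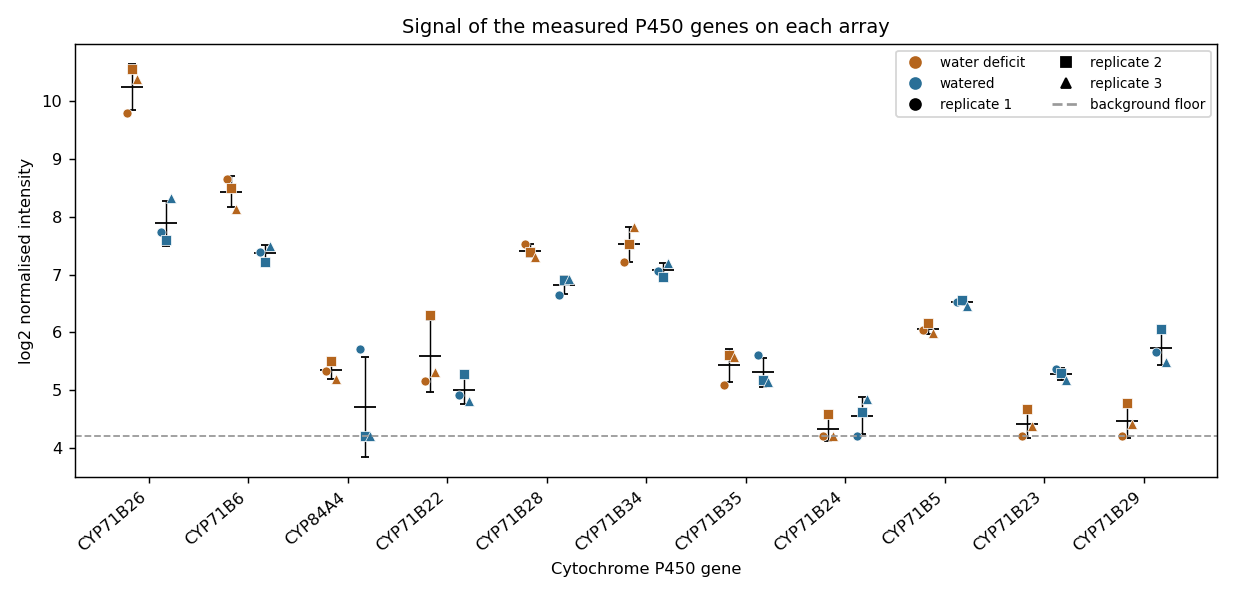
Log2 normalized intensity (y axis) of the 11 measured P450 genes (x axis, ordered by fold change), with water deficit arrays to the left of watered arrays, 1 symbol per replicate, bars for mean and SD (n = 3) and a dashed line at the floor. The groups are farthest apart for CYP71B26, and CYP71B29, CYP71B23, CYP71B24 and CYP84A4 have arrays on the floor.

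CYP71B26 (AT3G26290) showed the largest change of the 11. Its normalized intensity was 885, 1507 and 1342 on water deficit arrays 1, 2 and 3, against 212, 195 and 321 on watered arrays 1, 2 and 3. Every water deficit array lay above every watered array. The log2 signal averaged 10.25 ± 0.40 under water deficit and 7.89 ± 0.38 in watered rosettes (SD, n = 3 each), a log2 fold change of 2.36 ± 0.28 (SE from 3 arrays in each group, adjusted p = 0.000399 in limma) or 5.13-fold. Among the 11 genes it alone changed by 4-fold or more at an unadjusted p of at most 0.001, the thresholds used in the study. Over all tested probe sets 4.06% were higher and 4.15% lower by that rule. Compared within same-numbered replicates, it was higher by 2.06, 2.95 and 2.07 on the log2 scale in pairs 1, 2 and 3. No biochemical role is given here for this enzyme.

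CYP71B6 (AT2G24180), an enzyme that acts on indole-3-acetonitrile in the indole branch of defense metabolism, rose 2.09-fold. Water deficit arrays 1, 2 and 3 had normalized intensities of 405, 360.0 and 282, against 169, 148 and 179.9 on watered arrays 1, 2 and 3. The groups did not overlap. The log2 signal averaged 8.43 ± 0.27 under water deficit and 7.37 ± 0.14 in watered rosettes (SD, n = 3 each), with a log2 fold change of 1.06 ± 0.20 (SE from 3 arrays in each group, adjusted p = 0.00376 in limma). Pairs 1 and 2 differed by 1.27 and 1.28 on the log2 scale and pair 3 by 0.65, so all 3 pairs moved the same way.

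CYP71B28 and CYP71B29 are neighbors on chromosome 1 (AT1G13090 and AT1G13100) and were called in opposite directions. CYP71B28 had normalized intensities of 185, 168 and 158 on water deficit arrays 1, 2 and 3, against 100.3, 120.1 and 121 on watered arrays 1, 2 and 3. Its groups did not overlap, and the log2 fold change was 0.59 ± 0.18 (SE from 3 arrays in each group, adjusted p = 0.0271 in limma). This call was narrow: without water deficit replicate 1, 2 or 3 the adjusted p was 0.0707, 0.082 or 0.0589, and without watered replicate 1 or 2 it was 0.065 or 0.0671, at log2 fold changes from 0.50 to 0.64. CYP71B29 had 12.9, 27.5 and 21.4 on water deficit arrays 1, 2 and 3, against 50.4, 66.7 and 44.7 on watered arrays 1, 2 and 3. The first of these values is below the floor, so the fold is a lower bound. The gene was at least 2.40-fold lower under water deficit, with a log2 fold change of -1.26 ± 0.23 (SE from 3 arrays in each group, adjusted p = 0.00335 in limma). It was lower in all 3 pairs.

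CYP71B23 (AT3G26210) was the other gene that fell. Its normalized intensities were 15.3, 25.5 and 20.8 on water deficit arrays 1, 2 and 3, against 41.5, 39.6 and 36.1 on watered arrays 1, 2 and 3. The groups did not overlap, and 1 of the 3 water deficit arrays was at the floor. CYP71B23 was at least 1.82-fold lower (log2 fold change -0.87 ± 0.19, SE from 3 arrays in each group, adjusted p = 0.00742 in limma). It was lower in all 3 pairs, by 1.17, 0.64 and 0.80 on the log2 scale.

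**Figure D2:**
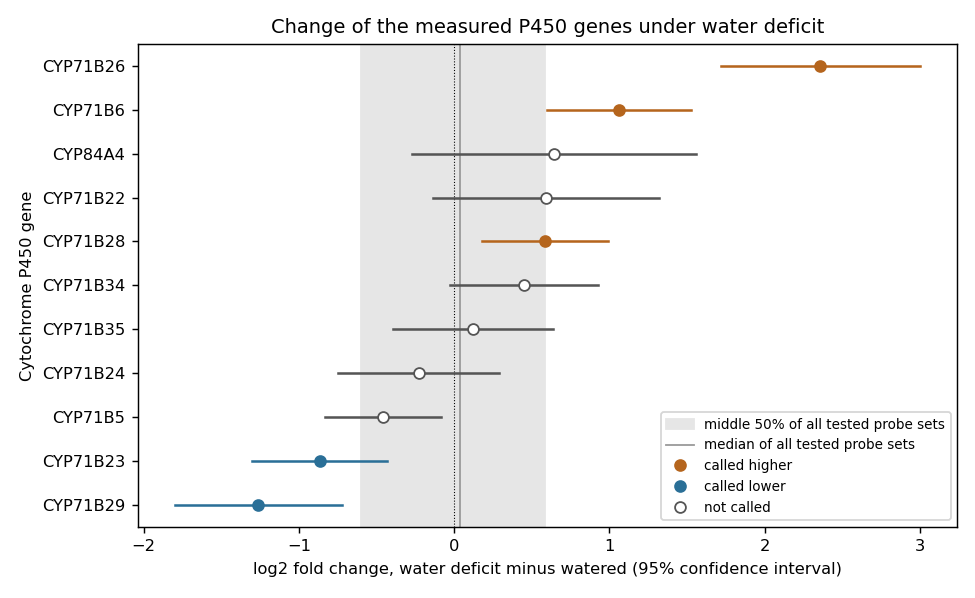
Log2 fold change, water deficit minus watered (x axis), with its 95% confidence interval for each of the 11 measured P450 genes (y axis), filled where called. The grey band holds the middle 50% of all tested probe sets, from -0.60 to 0.59, and 3 of the 11 genes lie above 1 or below -1 (CYP71B26, CYP71B6 and CYP71B29).

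CYP71B5 (AT3G53280) lay just outside the threshold. It had normalized intensities of 65.7, 71.7 and 63.2 on water deficit arrays 1, 2 and 3, against 92.7, 94.5 and 88.2 on watered arrays 1, 2 and 3. The groups did not overlap and the replicates were close together, with log2 SDs of 0.09 under water deficit and 0.05 in watered rosettes (n = 3 each). The log2 fold change was -0.46 ± 0.16 (SE from 3 arrays in each group, adjusted p = 0.0508 in limma), and with the replicate number as a block the adjusted p was 0.047. With the block the count was therefore 3 higher and 3 lower. With unscaled values the log2 fold change of CYP71B5 was 0.12, or -0.39 relative to the median of all tested probe sets.

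CYP84A4 (AT5G04330), which hydroxylates a phenolic aldehyde on the way to arabidopyrones, was uneven among watered arrays. Its normalized intensities were 40.4, 45.6 and 36.8 on water deficit arrays 1, 2 and 3, against 52.3, 18.4 and 11.4 on watered arrays 1, 2 and 3. After normalization watered replicate 1 was above every water deficit array and the other watered arrays were below the floor. Watered replicate 1 was the dimmest array, and its high value appeared only after normalization. The deposited intensities were 23.1, 72.8 and 51.4 on water deficit arrays 1, 2 and 3, against 19.5, 21.8 and 11.1 on watered arrays 1, 2 and 3. The log2 fold change was 0.64 ± 0.40 (SE from 3 arrays in each group, adjusted p = 0.22 in limma, 95% confidence interval -0.27 to 1.56). It is a lower bound, since watered arrays 2 and 3 were raised to the floor. With values raised to the 25th percentile instead, it was 0.88 (adjusted p = 0.266 in limma). Without watered replicate 1 the 5 remaining arrays were normalized anew, and 1 of the 2 watered arrays was still at the floor. The value without that array is therefore a lower bound too: the log2 fold change was 1.17, at least 2.25-fold (adjusted p = 0.00287 in limma). CYP84A4 was called in this alternative alone of the 13 that measured it. With any other array left out the log2 fold change was 0.40 to 0.70 (adjusted p from 0.277 to 0.507 in limma).

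The other measured genes, all of the CYP71B subfamily, were not called. CYP71B22 had 35.7, 78.8 and 40.04 normalized units on water deficit arrays 1, 2 and 3, against 30.1, 38.8 and 28.1 on watered arrays 1, 2 and 3. Water deficit replicate 2 stood above the rest, and the log2 fold change of 0.59 (95% confidence interval -0.14 to 1.32) was 0.23 without that array (adjusted p = 0.161 with it and 0.48 without it in limma). CYP71B34 had 149, 184 and 227 on water deficit arrays 1, 2 and 3, against 134, 124 and 147 on watered arrays 1, 2 and 3. Its groups did not overlap, but the log2 fold change of 0.45 had a 95% confidence interval of -0.03 to 0.93 (adjusted p = 0.113 in limma). CYP71B35 had a log2 fold change of 0.12 (-0.40 to 0.64), with 34.2 to 48.9 normalized units on water deficit arrays and 35.4 to 48.7 on watered arrays. CYP71B24 was above the floor on 1 water deficit array and 2 watered arrays, with a log2 fold change of -0.23 (-0.75 to 0.29).

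Groups did not overlap for 7 of the 11 genes (CYP71B26, CYP71B6, CYP71B28 and CYP71B34 higher, CYP71B29, CYP71B23 and CYP71B5 lower). Over all tested probe sets this held for 56.4%, with 28.4% higher and 28% lower. Of the 11 genes, 5 were higher and 3 were lower in all 3 same-numbered pairs, where 37.4% of all tested probe sets were higher and 35.4% were lower in every pair.

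The other 11 genes of the set were not measured. Of these, 8 were at or below the floor on all 6 arrays: CYP51G2, CYP71B16, CYP71B21, CYP71B25, CYP71B31, CYP71B36, CYP71B37 and CYP79A2. CYP71B31 is known for oxidizing linalool in flowers, and CYP79A2 converts phenylalanine to an oxime at the start of benzyl glucosinolate synthesis. CYP51G2 belongs to the family of sterol demethylases. CYP78A9, a regulator of fruit and seed size, passed the floor on water deficit replicate 2 alone (24.3 normalized units), and CYP71B38 on watered replicate 1 alone (27.7). CYP71B27 passed it on 1 array of each group, both replicate 1, with 27.5 on the water deficit array and 22.6 on the watered array. For these genes a change was not detectable on these arrays, which does not show that their transcripts are absent.

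Much of the set lies in 1 stretch of chromosome 3. From CYP86C2 to CYP71B37 the NCBI gene table lists 26 protein-coding genes and pseudogenes in order, and 17 of them carry P450 names. The stretch holds 11 of the 22 genes of the set, 6 of them measured. CYP71B26 rose, CYP71B23 fell, and CYP71B22, CYP71B24, CYP71B34 and CYP71B35 were not called. Of the 5 measured genes outside it, 2 rose and 1 fell. With 44.9% of all tested probe sets called, and so few genes on each side, these counts do not set the stretch apart from the rest, and the difference was not tested.

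**Figure D3:**
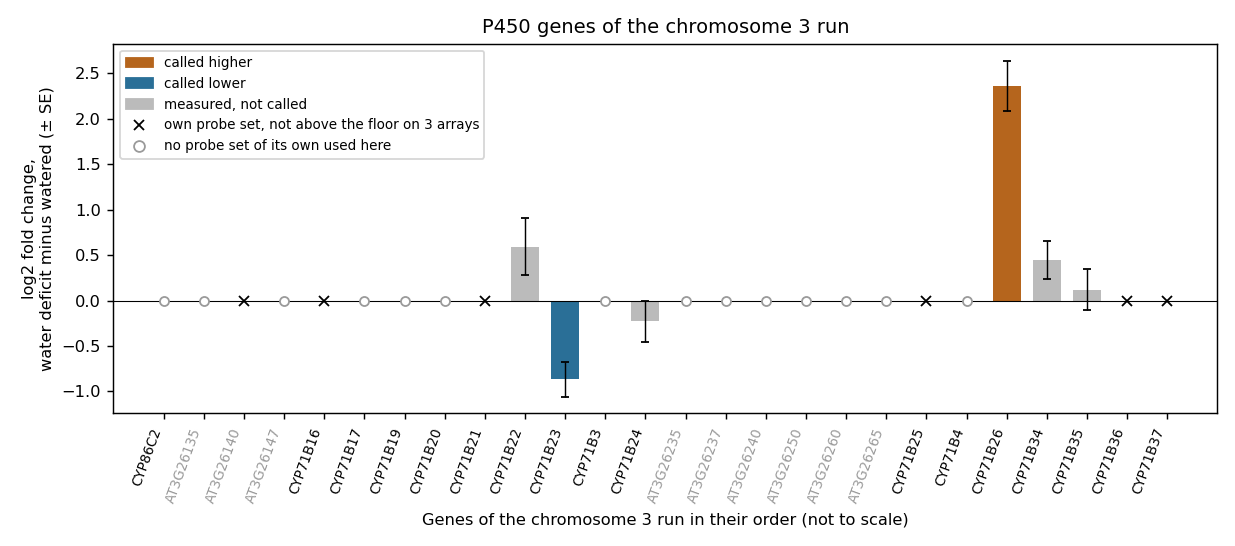
Log2 fold change, water deficit minus watered, with SE (y axis), of the genes from CYP86C2 to CYP71B37 on chromosome 3, in gene order (x axis, not to scale, P450 names in black). CYP71B26 rose with a log2 fold change of 2.36 and CYP71B23 fell with one of -0.87, crosses mark genes with a probe set not above the floor on 3 arrays, and circles mark genes with no probe set of their own used here.

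In 4 cases both genes of a directly neighboring pair were measured, and the difference between their log2 fold changes was tested from the within-array difference of the 2 genes. CYP71B26 differed from CYP71B34 by 1.91 ± 0.22, CYP71B28 from CYP71B29 by 1.85 ± 0.27, CYP71B22 from CYP71B23 by 1.46 ± 0.26 and CYP71B34 from CYP71B35 by 0.33 ± 0.20 on the log2 scale (SE from 3 arrays in each group). CYP71B29 and CYP71B23 were at the floor on water deficit replicate 1, so the differences that involve them are lower bounds. For the first 3 pairs the within-array difference did not overlap between groups, and a two-sided exact permutation test gave p = 0.1, the smallest value that 3 against 3 arrays allow (0.133 after adjustment over the 4 pairs). For CYP71B34 and CYP71B35 the exact permutation p was 0.2 (0.2 adjusted). The design could thus not bring any of these differences below 0.05 in this test.

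**Figure D4:**
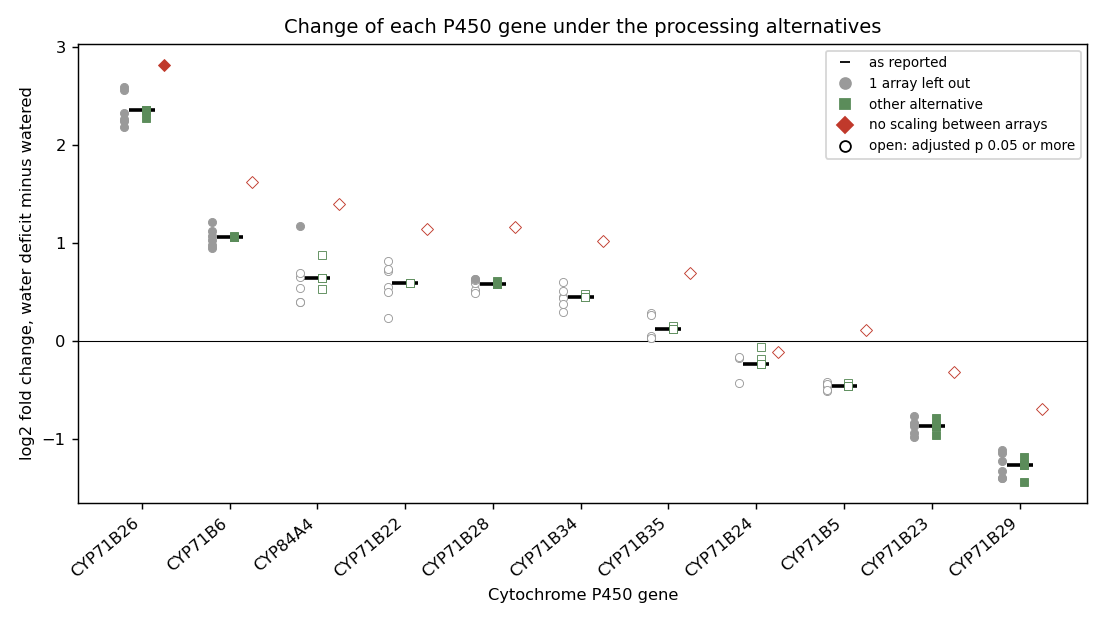
Log2 fold change, water deficit minus watered (y axis), of each measured P450 gene (x axis) as reported (black bar), without each array in turn, under the other alternatives and without scaling between arrays, with open symbols where the adjusted p was 0.05 or more. CYP71B26 stays between 2.18 and 2.82 with every symbol filled, and the symbols without scaling lie above the black bars for all 11 genes.

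The pathways that P450 enzymes serve could be followed only in part. The lists held 130 partner genes of hormone, glucosinolate, phenolic, cuticle, carotenoid, sterol and camalexin metabolism and of electron supply to P450 enzymes. In the annotation used here 9 of them were paired with a probe set of their own, and 8 passed the filter. Of these, 2 rose, 2 fell and 4 did not pass the test, and no gene for a P450 reductase or cytochrome b5 was among them. Over all tested probe sets 44.9% were called, 21.8% higher and 23% lower, so with so few genes these counts do not set the partner genes apart. In the glucosinolate list, the one that CYP79A2 belongs to by function, UGT74B1, the glucosyltransferase of the core pathway, fell (log2 fold change -0.65 ± 0.19, SE from 3 arrays in each group, adjusted p = 0.0261 in limma). UGT74C1, its relative in the methionine-derived branch, had a log2 fold change of -0.50 (adjusted p = 0.11 in limma), and BCAT4, which starts methionine chain elongation, one of 0.05 (adjusted p = 0.901 in limma). The remaining calls were rises of the flavonoid reductase DFR and the wax ester synthase WSD1 and a fall of the lycopene cyclase LYC. With unscaled values DFR and WSD1 were still called, and UGT74B1 and LYC were not (log2 fold changes of -0.12 and -0.71).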

How the data were processed

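The authors hybridized biotin-labelled cRNA of each rosette RNA to 1 ATH1 array and processed the arrays with Affymetrix and Rosetta Resolver software. The deposited intensity values are per array, and which of these steps they carry is not stated. They were taken to be linear, background-subtracted and not scaled between arrays. The grounds were their unequal medians and the 13.2% to 17.8% of the values of an array at or below 0. The sources used here name no genome build for the probe sets.

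Of 22810 probe sets, 64 were controls. Intensities were quantile normalized over the 6 arrays, raised to the highest value of 27 Bacillus control probe sets (4.21 on the log2 scale) and converted to log2. Probe sets above the floor on at least 3 arrays were tested, 13703 of 22746 (60.2%), with limma 3.58.1 in R 4.3.3 (two-sided, group as the only term, adjustment over all tested probe sets). The code of the fit was also run on simulated data with independent noise on each array, which checks the code and not the results here. Limma stood in for the proprietary ratio model of the authors. The design provided for this scaling where values were unscaled.

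Gene names came from the platform annotation, updated through NCBI gene identifiers (assembly TAIR10.1, used for names and gene order). Of the non-control probe sets 13513 had 1 gene, 503 several and 8730 none. Each P450 gene had 1 probe set, all 22 with the suffix for a single target. Probe sequences were not analysed here, so cross-hybridization between close relatives cannot be assessed. The rule for named genes took called P450 genes by size of change, up to 12 in each direction, those with a listed role and subfamily relatives called in opposite directions, and at most 4 called genes of each partner list. The remaining P450 genes, UGT74C1 and BCAT4 lie outside it and were named after their values were seen. Members and lists were chosen with earlier results of these data known.

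Deviations from the group means were correlated between same-numbered arrays (Pearson r = 0.29, 0.23 and 0.39 in replicates 1, 2 and 3). For other pairs r lay between -0.38 and 0.03, and part of this contrast is built in. The numbers in the sample titles were used for pair comparisons and as a block in an alternative fit, but not in the main fit. With the block 3 P450 genes were higher and 3 lower, against 3 higher and 2 lower in the main fit. No arrays held identical values. Alternatives changed the scaling, floor, filter, block and probe set choice or left out 1 array.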

Additional observations from a re-analysis of the deposited data

How the results depend on the processing

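The arrays limit precision through their number, 3 per group, and through faint signals near the floor. CYP71B26 kept its call in all 14 alternatives (log2 fold change 2.18 to 2.82). CYP71B6 kept it in 13 of 14, and CYP71B29 and CYP71B23 in 12 of the 13 that measured them, each losing it only without scaling. CYP71B28 kept it in 7 of 14. Without scaling, the median log2 fold change of all tested probe sets was 0.51. Of the calls over all probe sets 73.6% were rises, against 48.7% with quantile normalization. In that unscaled fit 1030 of 14915 tested probe sets were called higher and 370 lower. Then 1 P450 gene was higher and 0 were lower (CYP71B26 alone, adjusted p = 0.00178 in limma), the P450 median was 1.03, and CYP71B5 turned to 0.12, which is -0.39 relative to the median of all probe sets. Relative to that median CYP71B6, CYP71B28, CYP71B29 and CYP71B23 had 1.11, 0.65, -1.20 and -0.82. With no filter, flat probe sets at the floor entered the fit, the P450 median over all 22 genes was 0, 3 genes were lower and 0 passed the 4-fold rule. With only probe sets above the floor on all 6 arrays, 1 gene was lower (CYP71B5), since CYP71B29 and CYP71B23 were no longer tested. With values raised to the 25th percentile CYP71B28 lost its call (adjusted p = 0.0595 in limma). With the replicate block CYP71B5 was called (adjusted p = 0.047) and no other call changed, with 3 genes higher and 3 lower. Leaving out 1 array gave 2 to 3 genes higher, 2 lower, 1 by the 4-fold rule and a median of 0.30 to 0.53.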

Other observations

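Some P450 probe sets were left out of the set because they are shared with a second gene or because the gene symbol lacks the required form. A probe set shared by CYP71B19 and CYP71B20, neighbors in the same stretch of chromosome 3, had log2 signals of 9.17, 9.40 and 9.20 on water deficit arrays 1, 2 and 3, against 8.55, 8.51 and 9.08 on watered arrays 1, 2 and 3. The groups did not overlap, and the log2 fold change was 0.54 ± 0.21 (SE from 3 arrays in each group, adjusted p = 0.0699 in limma). The pseudogene CYP71B30P and CYP718 were at the floor on all 6 arrays, and a probe set shared by CYP79C2 and AT1G58265 was above it on watered replicate 1 alone.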
